A study of Rattus norvegicus with 8 samples.

Results

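The genes of glycolysis and of the response to low oxygen were followed through 8 RNA samples of the rat, 1 array each. The set was given as a list of 33 genes, and all 33 were found among the 12765 genes of the deposited value table. It holds 19 glycolytic enzymes and their regulator Pfkfb3, counted together, 4 transporters of glucose and lactate, and 10 genes of the hypoxia response. The sciatic nerve of adult female Sprague-Dawley rats was transected at mid-thigh on 1 side. The distal segment and the proximal segment of the left nerve were taken on day 1, and the right nerve of the other side, whose label mentions a PBS injection site, was their control. Spinal cord of day 5 came as a dorsal hemisection sample and as a C-level control sample. These cord labels count days from an injection and the protocol from an injury, and the sources used here do not name the substance. Pools of 3 animals made up each sample of nerve or cord. Primary Schwann cells, isolated from sciatic nerves of postnatal rats, grown with serum, forskolin and pituitary extract and passaged, had S100A8/A9 protein at 5 µg/ml for 1 h or for 24 h, or no stimulation with collection at 24 h. The unstimulated culture therefore matches the 24 h culture in time and not that of 1 h. S100A8 and S100A9 are calcium-binding proteins released by neutrophils and other leukocytes.

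Glycolysis turns glucose into pyruvate, and lactate dehydrogenase turns pyruvate into lactate. Many of its steps have several isoforms encoded by different genes, some used in most cells and others mainly in neurons, muscle or leukocytes. When oxygen is low, the transcription factor HIF-1, whose alpha subunit Hif1a encodes, escapes hydroxylation and breakdown and binds hypoxia response elements near genes of glycolysis, blood vessel growth and mitochondrial turnover. In peripheral nerve, Schwann cells are thought to pass lactate to axons through monocarboxylate transporters.

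Values are log2 values of the authors' normalized table, in which every array has the median 8.03. A probe's level was compared only with the same probe on other arrays, since levels of different probes are not on 1 scale. With 1 array in each group no difference has a replicate check and no test was made. Errors after ± are technical, from replicate spots within an array, and leave out the choice of processing. A gene is called higher or lower when its 2 values lay at least 2-fold, or 1 log2 unit, apart. Samples carry the headings of the value table. For 7 of the 8 samples the scanner file that ranks probes as the column does is recorded under another sample, so each direction rests on those headings. All 33 genes were well above background on 8 of 8 arrays, except Hk3, which was not on the array of unstimulated Schwann cells, and no probe of the set was saturated.

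The tissues were checked against lists of markers, given as the log2 of the summed level. The neuron list stood at 16.04 in dorsal hemisection cord and 17.56 in C-level control cord, against 11.15 to 12.12 in the 3 nerve samples and 13.05 to 13.35 in the 3 Schwann cell samples. The macrophage list stood at 16.71 to 18.11 in nerve and cord and at 13.14 to 14.30 in the cultures. There 4 of its 10 markers were well above background, and C1qb alone was at 13.07 to 14.27. All 10 Schwann cell and myelin markers were well above background on every array. Other cell markers differed between the injury groups. Neutrophil markers summed to 14.34 in distal nerve and 14.83 in proximal nerve, against 9.39 in contralateral nerve. Skeletal muscle markers summed to 13.02 in distal nerve and 16.30 in proximal nerve, against 11.72 in contralateral nerve. In these bulk samples fewer cells of a type and less RNA per cell cannot be told apart, and the part of any cell type in the results below was not tested.

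The promoters of the set were read for the core of the hypoxia response element, since the hypoxia genes of the set went in opposite directions in cut nerve. RefSeq promoter sequences of build GRCr8, 250 bases before to 50 after a gene's start, were matched by symbol for 30 of the 33 genes, with 35 promoters in all. The genes Pgk1, Slc2a3 and Ndrg1 had no entry. The letters searched were ACGTG and GCGTG on both strands, the reverse forms being CACGT and CACGC, and places that overlap were counted apart. Either motif was present in 24 of the 35 promoters (68.6%), against 41.6% of 33465 rat promoters of the same length. For ACGTG alone the shares were 57.1% in the set and 19.3% in all promoters, and for GCGTG they were 42.9% and 29.7%. The set was listed for glycolysis and the hypoxia response, so its higher shares are no independent support. Base composition was not matched. Below are promoters of 3 genes that were higher in both cut nerve segments (Ldha, Pdk1 and Slc16a3) and of 3 that were lower at least in the distal segment (Bnip3, Ddit4 and Egln3). Capitals mark the motif, and the sequence runs 5′ to 3′ on the gene's strand.
Ldha (chr1:106507842-106508141, + strand): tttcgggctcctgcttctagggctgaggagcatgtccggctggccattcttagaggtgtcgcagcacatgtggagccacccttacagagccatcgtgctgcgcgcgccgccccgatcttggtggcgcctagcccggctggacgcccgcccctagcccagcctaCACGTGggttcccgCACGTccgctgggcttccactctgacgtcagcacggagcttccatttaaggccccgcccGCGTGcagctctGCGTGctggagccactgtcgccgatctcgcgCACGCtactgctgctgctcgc
Pdk1 (chr3:77113264-77113563, + strand): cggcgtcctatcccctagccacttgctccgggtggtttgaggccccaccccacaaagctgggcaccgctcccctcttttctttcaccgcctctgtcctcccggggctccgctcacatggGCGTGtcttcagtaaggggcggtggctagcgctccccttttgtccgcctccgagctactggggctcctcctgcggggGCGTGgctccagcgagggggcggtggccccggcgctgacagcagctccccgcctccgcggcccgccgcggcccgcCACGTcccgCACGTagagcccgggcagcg
Slc16a3 (chr10:106712078-106712377, + strand): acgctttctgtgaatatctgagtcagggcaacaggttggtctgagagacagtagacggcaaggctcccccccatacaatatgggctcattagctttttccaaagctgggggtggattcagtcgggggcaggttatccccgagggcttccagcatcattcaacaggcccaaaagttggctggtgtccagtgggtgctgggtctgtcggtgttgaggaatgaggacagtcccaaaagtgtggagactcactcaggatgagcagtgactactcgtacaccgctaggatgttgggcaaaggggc
Bnip3 (chr1:203154913-203155212, - strand): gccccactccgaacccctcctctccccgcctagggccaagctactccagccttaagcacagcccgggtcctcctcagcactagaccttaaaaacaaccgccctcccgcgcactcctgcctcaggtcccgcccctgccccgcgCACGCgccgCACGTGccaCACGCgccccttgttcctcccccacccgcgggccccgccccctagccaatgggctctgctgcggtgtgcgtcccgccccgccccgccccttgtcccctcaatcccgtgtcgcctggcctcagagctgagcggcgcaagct
Ddit4 (chr20:28436988-28437287, - strand): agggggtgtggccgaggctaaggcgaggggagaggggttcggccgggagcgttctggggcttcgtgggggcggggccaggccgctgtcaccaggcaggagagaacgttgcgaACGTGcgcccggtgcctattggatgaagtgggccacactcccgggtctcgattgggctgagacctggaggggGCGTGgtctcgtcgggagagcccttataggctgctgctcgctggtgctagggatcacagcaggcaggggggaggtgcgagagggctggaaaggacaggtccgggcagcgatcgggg
Egln3 (chr6:77410966-77411265, - strand): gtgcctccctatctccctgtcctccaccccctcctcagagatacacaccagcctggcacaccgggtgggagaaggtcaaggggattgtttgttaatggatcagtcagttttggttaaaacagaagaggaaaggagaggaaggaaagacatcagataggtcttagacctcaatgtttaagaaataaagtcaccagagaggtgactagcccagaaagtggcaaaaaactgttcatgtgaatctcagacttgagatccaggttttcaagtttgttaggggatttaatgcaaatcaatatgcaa
Ldha held the motif at 6 places and Pdk1 at 4, while Slc16a3 held none. Bnip3 held it at 4 places and Ddit4 at 2, while Egln3 held none. Of the genes at least 2-fold higher in distal nerve 5 of 8 with an entry held a motif, and of those at least 2-fold lower 6 of 7 did. Here a gene counted if any of its promoters held a motif, unlike the shares per promoter above. The difference between these small counts was not tested. A match describes letters only and is not a binding site.

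**Figure D1:**
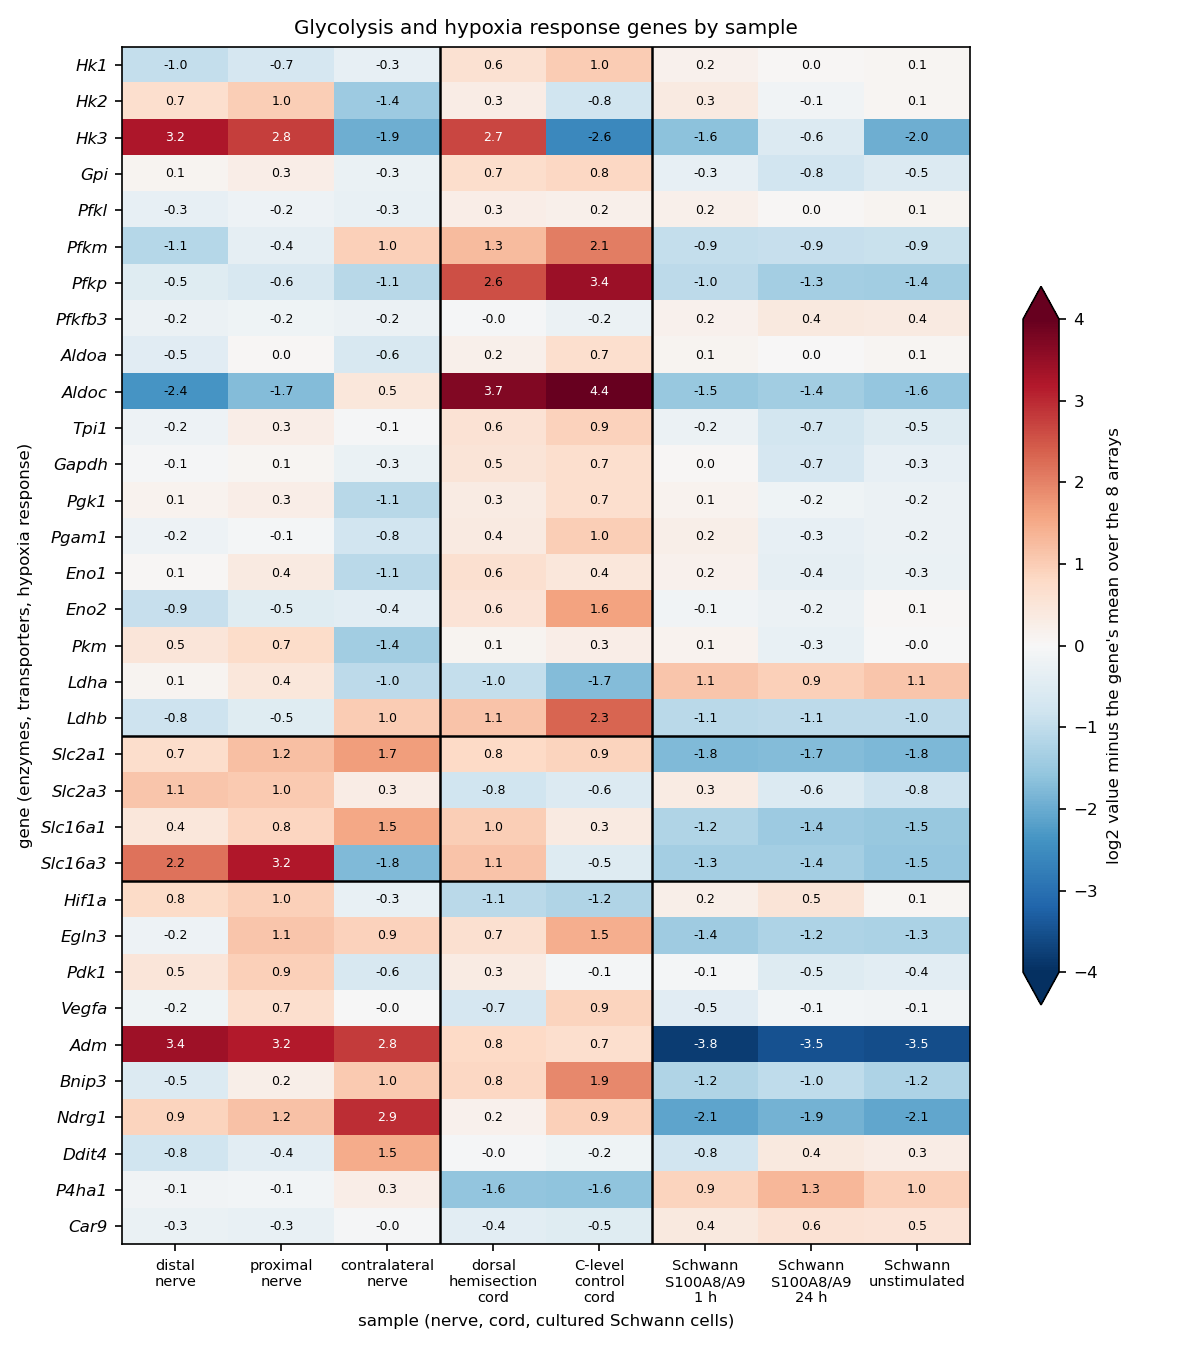
Heat map of the log2 value of each of the 33 genes minus its own mean over the 8 arrays (colour and printed number), with genes in rows (enzymes, transporters, hypoxia response, parted by lines) and samples in columns (nerve, cord, Schwann cells). Hk3 and Slc16a3 are high in both cut nerve segments, Aldoc and Pfkp in cord, and Adm is low in the 3 cultures; colour is capped at 4 log2 units either way.

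The first comparison asked how the cut nerve differed from the nerve of the other side on day 1. Counted at 2-fold, 9 of the 33 genes were higher in distal nerve and 8 lower, while among all 12131 genes measured the shares were 13.4% and 14.3%. In proximal nerve 9 were higher and 5 lower, beside shares of 11.1% and 11.8% among 12242 genes. The same 9 genes were higher in both: the hexokinases Hk2 and Hk3, the enzymes Pgk1, Eno1, Pkm and Ldha, the lactate exporter Slc16a3, the kinase Pdk1 and Hif1a. The 5 lower proximally (Pfkm, Aldoc, Ldhb, Ndrg1 and Ddit4) were lower distally as well, where Slc16a1, Egln3 and Bnip3 joined them. Both comparisons use the same contralateral array, so their likeness is no second measurement. The median log2 ratio of the 33 was -0.02 in distal and 0.35 in proximal nerve, beside 0.01 and -0.01 for all genes. In distal nerve 16 genes were above 0 and 17 below, and in proximal nerve 21 were above and 12 below.

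Within the steps of glycolysis the isoforms went apart. Hexokinase traps glucose in the cell. Hk3, an isoform of leukocytes, stood at 9.51 in distal nerve and 9.05 in proximal nerve, against 4.34 in contralateral nerve. Its log2 ratios were 5.17 ± 0.61 and 4.71 ± 0.61, with lows of 3.02 and 2.64 under other settings on the matching scans. Hk2, the inducible isoform, stood at 8.13 in distal and 8.45 in proximal nerve, against 6.02 in contralateral nerve, with log2 ratios of 2.12 ± 0.28 and 2.44 ± 0.25. Hk1, the isoform of brain and of most tissues, was at 11.49 and 11.78 in the 2 cut segments, against 12.13 in contralateral nerve (log2 ratios -0.64 ± 0.08 and -0.35 ± 0.08). The log2 ratio of Hk2 exceeded that of Hk1 by 2.75 in distal and 2.79 in proximal nerve. With other settings on the matching scans these shifts were as small as 1.86 and 1.84, and those of Hk3 against Hk1 were 5.81 and 5.06, with lows of 3.58 and 2.86.

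Phosphofructokinase is the committed step. Pfkm, the muscle-type isoform, was at 10.46 in distal nerve and 11.22 in proximal nerve, against 12.54 in contralateral nerve (log2 ratios -2.09 ± 0.08 and -1.32 ± 0.08). It was lowest in the distal segment. Muscle markers were highest in proximal nerve, where Pfkm lay above its distal and below its contralateral value, and their part was not tested. Pfkp, the platelet-type isoform, was at 11.79 and 11.66 in distal and proximal nerve, against 11.18 in contralateral nerve, and its ratios of 0.61 ± 0.08 and 0.48 ± 0.08 stayed under 2-fold. Pfkl, the liver-type isoform, was at 9.07, 9.20 and 9.10 in distal, proximal and contralateral nerve, with log2 ratios of -0.03 and 0.10. Pfkfb3, which makes the activator of this step, was at 6.43 and 6.50 in the cut segments, against 6.45 in contralateral nerve.

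Aldolase splits the 6-carbon sugar. Aldoc, the isoform of brain and other nervous tissue, was at 11.32 in distal nerve and 11.93 in proximal nerve, against 14.13 in contralateral nerve. The log2 ratios of -2.80 ± 0.11 and -2.20 ± 0.11 were the lowest of the set in both segments, and a second Aldoc probe gave -2.72 and -2.13. Aldoa, the isoform of muscle and most cells, was at 13.36 and 13.86 in distal and proximal nerve, against 13.20 in contralateral nerve. Its log2 ratios were 0.15 ± 0.07 and 0.65 ± 0.07, and the shift of Aldoa against Aldoc was 2.96 in distal and 2.85 in proximal nerve.

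Of the later steps 3 lay beyond 2-fold and others within it. Pkm, pyruvate kinase, was at 13.33 in distal and 13.60 in proximal nerve, against 11.48 in contralateral nerve (log2 ratios 1.84 ± 0.11 and 2.12 ± 0.11). Pgk1, phosphoglycerate kinase, was at 16.18 and 16.32 in the cut segments, against 14.96 in contralateral nerve (1.22 ± 0.07 and 1.36 ± 0.07). Eno1, the enolase of most cells, was at 14.74 and 15.05, against 13.62 in contralateral nerve (1.12 ± 0.07 and 1.43 ± 0.07). These 3 enzymes were higher on both arrays of cut nerve than on the contralateral array. Eno2, the neuronal enolase, was at 8.54 in distal nerve and 8.98 in proximal nerve, against 9.03 in contralateral nerve, with log2 ratios of -0.50 ± 0.09 and -0.05 ± 0.09. Pgam1, Gpi and Gapdh had ratios from 0.22 to 0.70, and Tpi1 was at -0.16 in distal and 0.33 in proximal nerve. Gapdh, often used as a reference gene, was at 15.32 and 15.45 in distal and proximal nerve, against 15.10 in contralateral nerve, and its 3 probes gave log2 ratios of 0.11 to 0.39.

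The isoforms of lactate dehydrogenase went opposite ways, each by over 2-fold. Ldha, whose enzyme favours lactate formation, was at 16.63 in distal nerve and 16.97 in proximal nerve, against 15.49 in contralateral nerve (log2 ratios 1.13 ± 0.07 and 1.48 ± 0.07). Ldhb, whose enzyme favours pyruvate formation, was at 12.81 and 13.15, against 14.65 in contralateral nerve (-1.84 ± 0.07 and -1.49 ± 0.07). The shift of Ldha against Ldhb was 2.97 in distal and 2.98 in proximal nerve, 2.86 to 3.08 with the other settings on the matching scans.

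The lactate transporters went the same way apart. Slc16a3 encodes MCT4, the exporter of glycolytic cells such as leukocytes and fast muscle. It stood at 11.77 in distal nerve and 12.82 in proximal nerve, against 7.85 in contralateral nerve, and the log2 ratios of 3.92 ± 0.09 and 4.97 ± 0.09 were the second highest and the highest of the set. The distal order depends on the setting: Slc16a3 had a low of 3.55 there and Hk3 a low of 3.02. Slc16a1 encodes MCT1, the carrier of myelinating glia, and was at 10.14 in distal and 10.55 in proximal nerve, against 11.25 in contralateral nerve (-1.11 ± 0.08 and -0.69 ± 0.08). The shift of Slc16a3 against Slc16a1 was 5.02 in distal and 5.66 in proximal nerve. Slc2a1, the glucose transporter GLUT1 of the blood-nerve barrier, was at 13.47 and 13.99, against 14.44 in contralateral nerve (-0.97 ± 0.04 and -0.45 ± 0.03), just inside the 2-fold limit distally. Slc2a3, the transporter GLUT3 of neurons and leukocytes, was at 6.72 and 6.66, against 5.92 in contralateral nerve (0.80 ± 0.26 and 0.73 ± 0.26).

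The hypoxia response genes went both ways. Of the 10, 2 were at least 2-fold higher in distal nerve and 4 lower, beside 13.4% and 14.3% of all genes. In proximal nerve 2 were higher and 2 lower, beside 11.1% and 11.8% of all genes. Hif1a was at 8.28 in distal nerve and 8.47 in proximal nerve, against 7.23 in contralateral nerve (log2 ratios 1.05 ± 0.14 and 1.24 ± 0.14). With other settings on the matching scans it went as low as 0.70 and 0.88, under 2-fold. Pdk1, which blocks the entry of pyruvate into mitochondria, was at 7.95 and 8.40, against 6.83 in contralateral nerve (1.11 ± 0.21 and 1.56 ± 0.18). Both genes were higher in the 2 cut segments. Under another setting Pdk1 in distal nerve was at 0.72, also under 2-fold.

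Other targets of HIF-1 were lower. Ddit4, an inhibitor of mTOR signalling also induced by glucocorticoids and DNA damage, was at 11.30 in distal nerve and 11.66 in proximal nerve, against 13.57 in contralateral nerve (log2 ratios -2.27 ± 0.03 and -1.90 ± 0.03). Its other probe gave -2.29 and -1.85. Ndrg1, needed for the upkeep of myelin by Schwann cells, was at 13.22 and 13.52, against 15.29 in contralateral nerve (-2.07 ± 0.07 and -1.77 ± 0.07). Bnip3, a mitophagy receptor, was at 12.29 in distal and 13.05 in proximal nerve, against 13.87 in contralateral nerve (-1.58 ± 0.07 and -0.82 ± 0.07). Myelin and Schwann cell markers were lower too: 7 of 10 were at least 2-fold lower in distal nerve and 5 of 10 in proximal nerve, and their summed level was 18.49 and 18.73, against 19.43 in contralateral nerve.

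Egln3, the prolyl hydroxylase that HIF-1 itself induces, separated the segments. It was at 7.71 in distal nerve and 9.03 in proximal nerve, against 8.85 in contralateral nerve (log2 ratios -1.15 ± 0.15 and 0.18 ± 0.09, with -0.91 for the distal segment under 1 other setting). Vegfa, the vascular growth factor, was at 11.55 and 12.42, against 11.71 in contralateral nerve (-0.16 ± 0.08 and 0.71 ± 0.08). Its 3 other, dimmer probes gave 0.31 to 0.91 in distal and 1.43 to 2.06 in proximal nerve, so its ratio depends on the probe. P4ha1, of collagen hydroxylation, Car9, a carbonic anhydrase, and the vasodilator peptide gene Adm all lay within 2-fold, from -0.41 to 0.57.

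**Figure D2:**
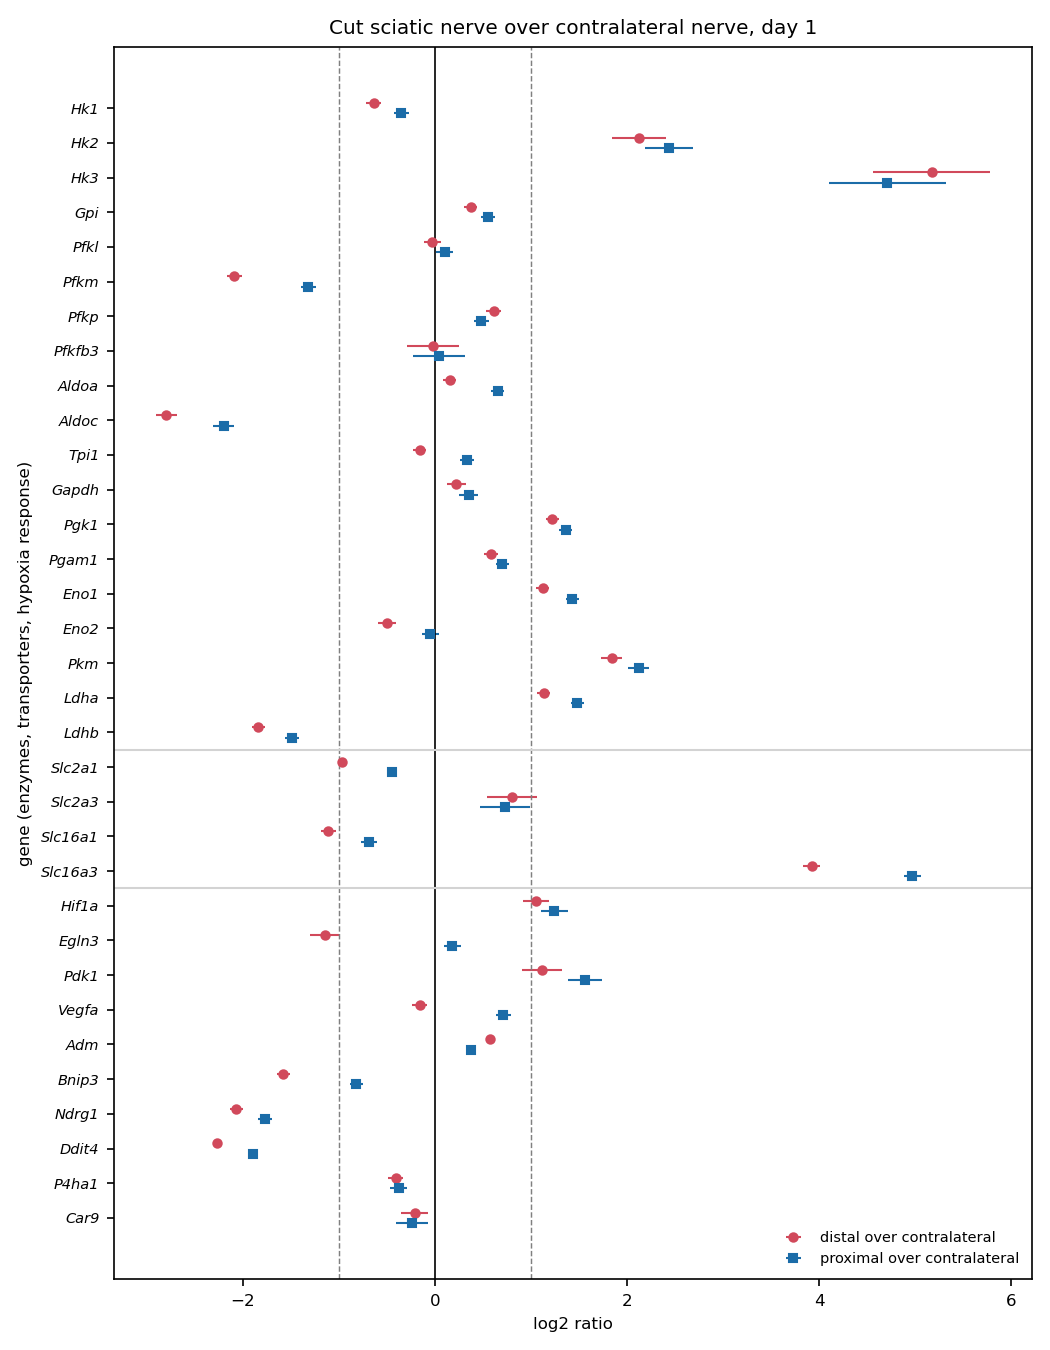
Log2 ratio of distal (circles) and proximal (squares) over contralateral nerve for the 33 genes, with technical errors from replicate spots as bars, a solid line at 0 and dashed lines at 2-fold. Slc16a3 and Hk3 lie farthest to the right, at 3.92 to 5.17, and Aldoc farthest to the left, at -2.80 and -2.20, in both segments.

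Between the 2 segments few genes of the set lay apart. None of the 33 was 2-fold higher in distal than in proximal nerve and 2 were lower, where all 12222 genes gave 1.24% and 1.94%. These were Egln3 (7.71 in distal and 9.03 in proximal nerve, log2 ratio -1.33 ± 0.14) and Slc16a3 (11.77 and 12.82, -1.05 ± 0.05). Yet 28 of the 33 genes had a ratio under 0, with a median of -0.31 beside 0.02 for all genes. Next in size were Vegfa (-0.87), Bnip3 (-0.76) and Pfkm (-0.76). The other Vegfa probes gave -1.11, -1.14 and -0.89. A second, dimmer Pkm probe gave -1.30, against -0.27 with the probe used. With the mean of probes 3 genes were lower in place of 2. All 12 skeletal muscle markers were at least 2-fold lower in distal nerve, with a median of -3.62. The muscle enzymes Pgam2 (-2.84) and Eno3 (-2.16) had the lowest ratios among the related glycolysis genes.

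Genes related to the set were read from 3 further lists. Over all genes the shares higher and lower were 13.4% and 14.3% in distal nerve, and 11.1% and 11.8% in proximal nerve. Of 34 related glycolysis and pyruvate genes 5 lay 2-fold or more above contralateral nerve and 5 below it in distal nerve (median -0.25), and 9 were higher and 4 lower in proximal nerve (median 0.19). The highest were Ldhc (at least 2.27) and Slc16a6 (2.26) distally and Fbp2 (at least 3.52) and Eno3 (3.02) proximally. Fbp2 and Eno3 encode muscle enzymes. The lowest were the insulin-regulated glucose transporter gene Slc2a4 (-2.20) and Pdk4 (at most -1.82) distally, and Slc2a4 (-2.05) and pyruvate carboxylase Pc (-1.39) proximally.

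Of 35 related HIF pathway and target genes 6 were higher and 3 lower in distal nerve (median 0.06), and 8 were higher and 2 lower in proximal nerve (median 0.14). Among the higher ones Angptl4, of lipid metabolism, had log2 ratios of 2.39 distally and 1.98 proximally, while endothelin Edn1 was lowest at -2.14 and -1.87. Of 23 genes of mitochondrial respiration 2 were higher in distal nerve, fumarase Fh (1.29) and citrate synthase Cs (1.16), and none in proximal nerve, with medians of 0.29 and 0.27. None was lower.

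Markers of several cell types differed in the same comparisons. Of 9 neutrophil markers 7 were at least 2-fold higher in distal nerve and 8 in proximal nerve, with medians of 3.44 and 4.20. Of 10 macrophage markers 7 and 5 were higher, with medians of 1.81 and 1.06. Their summed level was 17.24 in distal and 16.96 in proximal nerve, against 17.24 in contralateral nerve. C1qb weighed most in this sum, at 15.76 in distal and 15.77 in proximal nerve, against 16.71 in contralateral nerve. Of 6 fibroblast markers 4 were lower in each segment, with medians of -1.60 and -1.30. Of 5 adipocyte markers 1 was lower distally, and 4 were lower and 1 higher proximally, with medians of -0.82 and -1.38. Of 8 cell cycle genes 7 were higher in each segment, with medians of 3.68 and 2.94. Their part in the values of the set was not tested.

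In the spinal cord the comparison was of the dorsal hemisection sample with the C-level control sample. The control's label names a cord level and the hemisection label names none. Injury, cord level and dissection therefore cannot be told apart in this pair. Counted at 2-fold, 3 of the 33 genes were higher in dorsal hemisection cord and 4 lower, with shares of 10.1% and 9.24% among 12196 genes. The median of the set was -0.15 beside -0.05 for all genes. Hk3 had the largest ratio, as in distal nerve by the value table: it stood at 8.97 in dorsal hemisection cord, against 3.72 in C-level control cord (log2 ratio 5.24 ± 0.47). Normexp background correction gave 2.65 for it. Slc16a3 was at 10.74, against 9.10 in C-level control cord (1.63 ± 0.07), and Hk2 at 7.75, against 6.68 in C-level control cord (1.07 ± 0.15, with a low of 0.76 under another setting). In the value table these 3 are the genes with the largest ratios in cut nerve as well.

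The 4 lower genes were Vegfa, Ldhb, Bnip3 and Eno2. Vegfa was at 11.08 in dorsal hemisection cord, against 12.62 in C-level control cord (log2 ratio -1.54 ± 0.06). Its other probes gave -0.12, -0.36 and -1.39, so this difference is not shared by all of its probes. Ldhb was at 14.77, against 15.95 in C-level control cord (-1.18 ± 0.05), Bnip3 at 13.65, against 14.75 in C-level control cord (-1.10 ± 0.05), and Eno2 at 10.01, against 11.05 in C-level control cord (-1.04 ± 0.06). With the matching scans scaled to the 75th percentile only 1 of the 33 was lower by 2-fold, and the smallest ratios over the settings were -0.85 for Vegfa, -0.78 for Ldhb, -0.92 for Bnip3 and -0.97 for Eno2.

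The remaining isoforms lay within 2-fold in cord. Ldha was at 15.56 in dorsal hemisection cord, against 14.80 in C-level control cord, so that its shift against Ldhb was 1.95. Eno1 was at 15.33, against 15.13 in C-level control cord, a shift of 1.24 against Eno2. Aldoc was at 17.38, against 18.09 in C-level control cord, and Aldoa at 14.02, against 14.50, which left a shift of 0.22. The second Aldoc probe gave a ratio of -1.31, beyond 2-fold, where the probe used gave -0.71. Pfkp (14.87, against 15.72 in C-level control cord) and Pfkm (12.84, against 13.64) were lower by like amounts. Slc16a1 was at 10.68, against 10.05 in C-level control cord, Slc2a1 at 13.58, against 13.67, and Hk1 at 13.06, against 13.45. The other enzymes and Slc2a3 had ratios from -0.63 for Pgam1 to 0.20 for Pfkfb3. A second, dimmer Pkm probe, well above background on 5 of 8 arrays and on both of cord, gave -1.85, against -0.15 with the probe used. That of Pfkfb3 was not well above background in C-level control cord. The other hypoxia genes had ratios from -0.79 for Egln3 and Ndrg1 to 0.42 for Pdk1, with Hif1a at 0.13 and Ddit4 at 0.13.

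Cell markers differed between the cord samples too. Of 9 neuron markers 8 were at least 2-fold lower in dorsal hemisection cord (median -1.34), 9 of 10 macrophage markers were higher (median 1.63) and 6 of 9 neutrophil markers were higher (median 1.55), as were 7 of 8 cell cycle genes (median 2.72). Of 12 skeletal muscle markers 10 were lower (median -1.68), and all 5 adipocyte markers were lower (median -2.98), while 3 of 6 fibroblast markers were higher (median 1.04). The part of these cell types in the cord values was not tested. No astrocyte marker of 7 was higher and 1 was lower. Over all genes 10.1% were higher in dorsal hemisection cord and 9.24% lower. Among related genes 5 of 34 HIF pathway genes were higher and none lower, among them Loxl2 (2.49), which cross-links collagen. Of 34 related glycolysis genes 2 were higher, the transporters Slc2a5 (1.22) and Slc16a7 (1.15), and 8 lower, among them Pgam2 (-2.00). In the mitochondrial list none of 23 was higher and 2 were lower, Cycs (-1.30) and Idh3a (-1.09).

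The cultures asked whether S100A8/A9 acts on Schwann cells themselves. Few genes of the set reached 2-fold. At 1 h 1 of the 33 genes was higher than in unstimulated cells and 1 lower by this limit, with shares of 1.65% and 1.34% among 10968 genes. At 24 h 1 was higher and none lower, with shares of 0.608% and 0.626% among 11025 genes. Both comparisons use the 1 unstimulated array, collected at 24 h, so at 1 h stimulation and collection time cannot be told apart. Medians of the set were 0.07 and 0.02, beside -0.02 and 0.00 for all genes.

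Ddit4 was the gene lower at 1 h. It stood at 11.31 at 1 h and 12.48 at 24 h, against 12.38 in unstimulated cells (log2 ratios -1.07 ± 0.03 and 0.10 ± 0.02). Its other probe gave -0.92 and 0.22, so that the mean of both probes lay just short of 2-fold at 1 h. Slc2a3 was the gene higher at 1 h, at 5.94 at 1 h and 5.06 at 24 h, against 4.78 in unstimulated cells. The log2 ratio at 1 h was 1.16 ± 0.66, a low signal with a wide spot error, and normexp gave 0.38. Hk3 was at 4.64 at 1 h and 5.73 at 24 h, and it was not well above background in unstimulated cells, so the log2 ratio at 24 h is given as a bound, at least 1.41 with a technical error of 0.64. Normexp gave 0.61 for it, under 2-fold.

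Several enzymes of the lower pathway stood slightly higher at 1 h, all within 2-fold. Pgam1 was at 15.91 at 1 h and 15.34 at 24 h, against 15.43 in unstimulated cells (log2 ratios 0.48 ± 0.05 and -0.08 ± 0.05). Eno1 was at 14.87 and 14.33, against 14.41 in unstimulated cells, and Gapdh at 15.41 and 14.70, against 15.06 in unstimulated cells. Ldha (17.65 at 1 h, 17.47 at 24 h, 17.64 unstimulated) and Ldhb (12.57, 12.58 and 12.59) hardly differed. Slc16a3 (8.26, 8.25 and 8.07), Slc16a1 (8.50, 8.26 and 8.19) and Slc2a1 (11.02, 11.05 and 10.98), each at 1 h, at 24 h and unstimulated, also lay close together. Hif1a was at 7.76 at 1 h and 8.04 at 24 h, against 7.59 in unstimulated cells. Leaving out the genes called, ratios to unstimulated cells ran from -0.33 for Vegfa to 0.48 for Pgam1 at 1 h, and from -0.36 for Gapdh to 0.45 for Hif1a at 24 h.

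At 24 h against 1 h, 2 of the 33 genes were 2-fold higher and none lower, with shares of 1.86% and 2.03% among 10926 genes. These were Ddit4 (12.48 at 24 h and 11.31 at 1 h, log2 ratio 1.17 ± 0.03) and Hk3 (5.73 and 4.64, 1.09 ± 0.58, with 0.51 by normexp). Among related genes 2 of 34 in the HIF list were higher at 1 h than in unstimulated cells, beside 1.65% of all genes. These were the repressor Bhlhe40 (1.12) and stanniocalcin Stc2 (1.06). At 24 h Ak4 was lower than in unstimulated cells (-1.01), beside 0.626% of all genes. Of the related glycolysis genes (29 measured at 1 h and 30 at 24 h) and the 23 mitochondrial genes none was apart at either time. In the same cells 4 of 10 Schwann cell and myelin markers were at least 2-fold lower at 1 h, and none at 24 h.

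**Figure D3:**
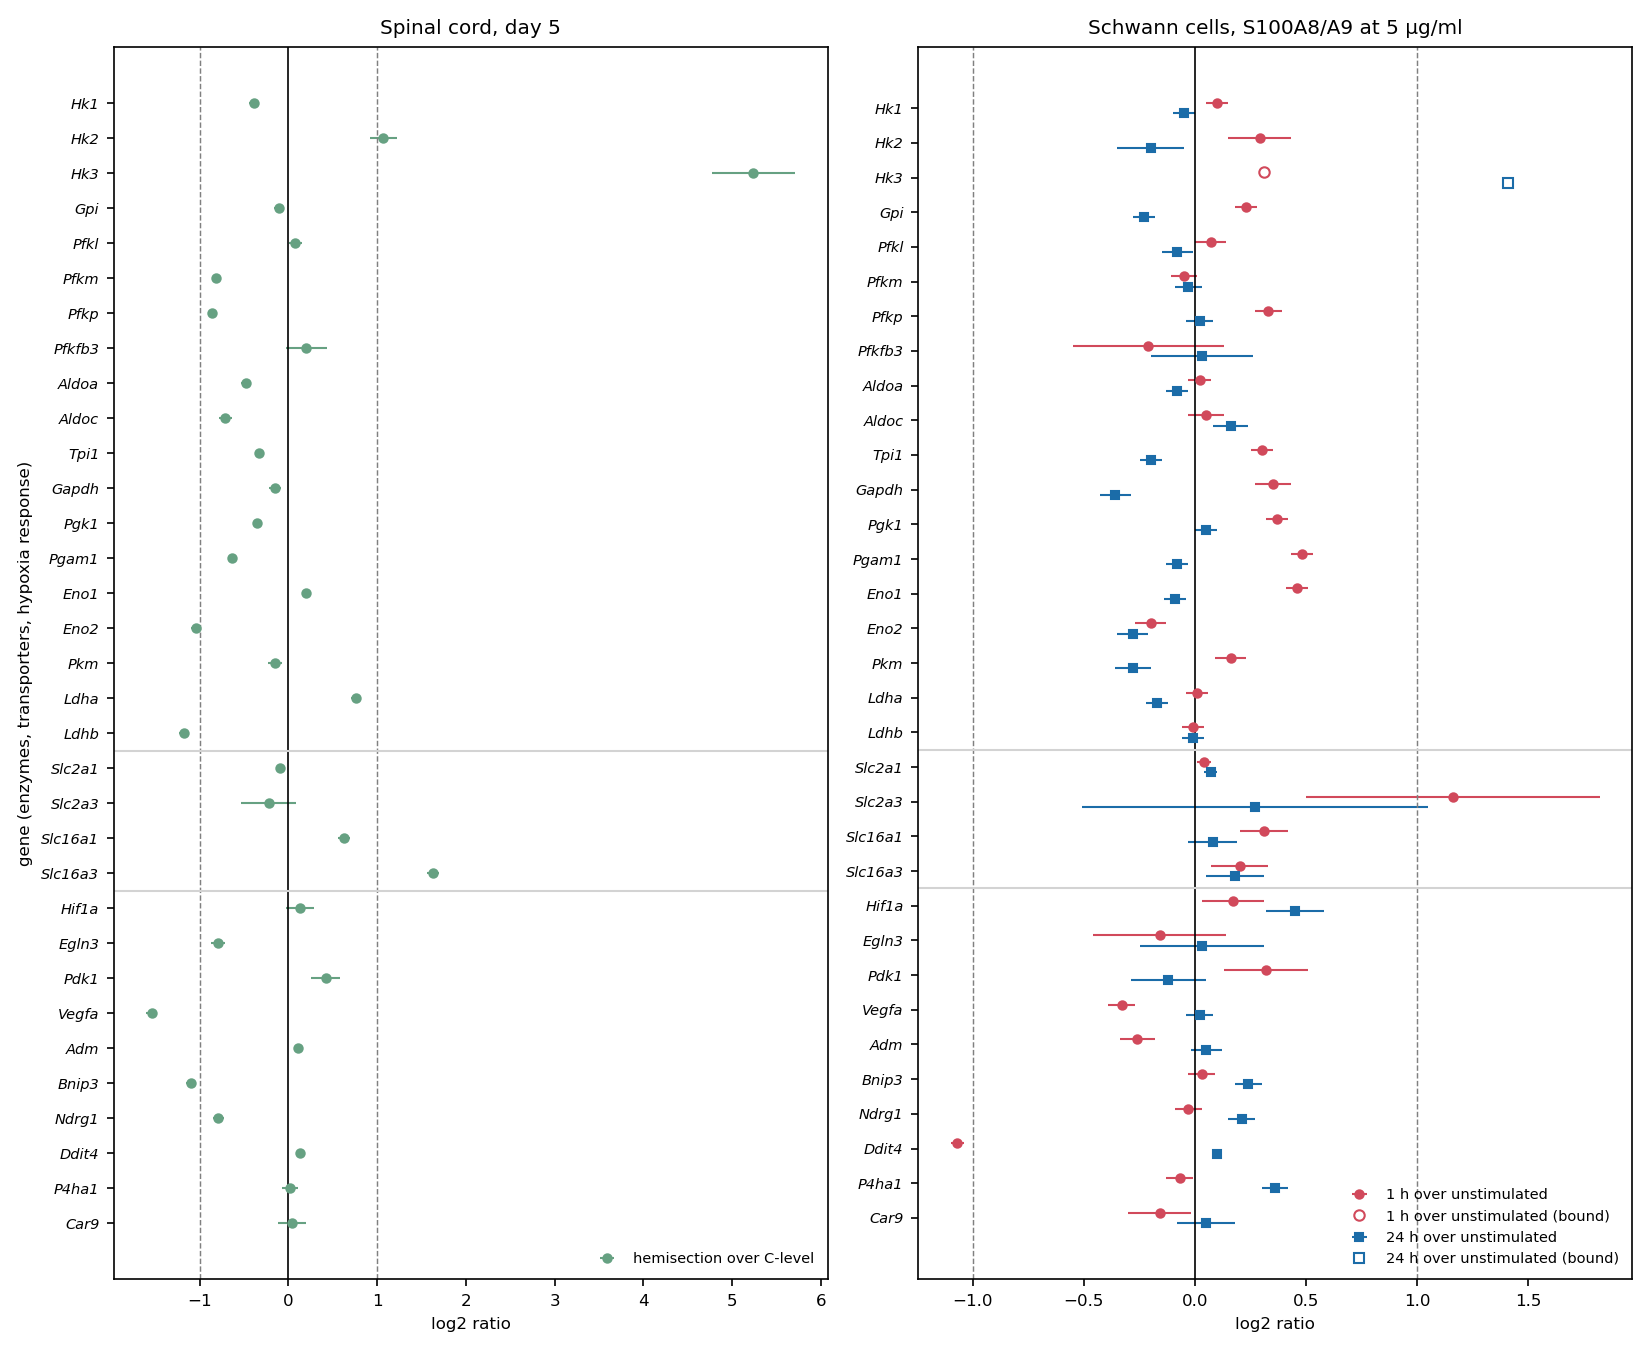
Log2 ratios of the 33 genes in cord (dorsal hemisection over C-level control, left) and in Schwann cells (1 h as circles and 24 h as squares over unstimulated, right), with technical errors as bars, bounds as open symbols and dashed lines at 2-fold. The axes differ: in cord Hk3 reaches 5.24 and Vegfa -1.54, while in the cultures the ratios run from -1.07 for Ddit4 to at least 1.41 for Hk3.

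The tissues were compared last. Samples of a tissue are different conditions and no replicates, so ranges were compared: a gene was called where every sample of 1 tissue lay beyond every sample of the other and the tissue means were at least 2-fold apart. In cord 7 of the 33 genes were higher than in nerve and 4 lower, beside shares of 14.8% and 15.1% among 12697 genes. In Schwann cells 2 were higher than in nerve and 6 lower, beside 17.0% and 16.1% among 12460 genes. Against cord 3 were higher in Schwann cells and 14 lower, beside 24.3% and 20.8% among 12411 genes. Higher were Ldha, P4ha1 and Hif1a (1.41, with a low of 0.70 under another setting). Lower were the enzymes Gpi, Pfkm, Pfkp, Aldoc, Tpi1, Eno2 and Ldhb. So were Slc2a1, Slc16a1, Slc16a3, Egln3, Bnip3, Ndrg1 and Adm. Slc16a3 was at -0.91 without dorsal hemisection cord and Eno2 at -0.66 without C-level control cord, while other genes were gained. Without the contralateral sample 8 genes in place of 4 were lower in cord than in nerve. In Schwann cells over nerve 1 gene in place of 2 was higher without the contralateral nerve, where Ldha was lost, and without the 24 h culture, the distal or the proximal nerve, where P4ha1 was lost.

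The 7 genes higher in cord were all enzymes. Aldoc was at 17.38 and 18.09 in the 2 cord samples, against 11.32 to 14.13 in nerve, and the means differed by 5.28. Pfkp was at 14.87 and 15.72 in cord, against 11.18 to 11.79 in nerve (difference 3.75). Pfkm (1.83), Ldhb (1.82), Eno2 (1.68), Hk1 (1.46) and Pgam1 (1.02, with a low of 0.60 under another setting and 0.71 or 0.81 without the C-level control cord or the contralateral nerve) followed. Of these, Aldoc is a product of astrocytes and Eno2 of neurons. The astrocyte list summed to 15.84 and 15.82 in dorsal hemisection and C-level control cord, against 12.44 to 13.00 in nerve and 11.40 to 11.50 in Schwann cells.

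Lower in cord than in nerve were Adm (11.67 and 11.56 in cord, against 13.68 to 14.25 in nerve), P4ha1 (8.48 and 8.46, against 9.93 to 10.34 in nerve), Hif1a (6.45 and 6.32, against 7.23 to 8.47 in nerve) and Slc2a3 (4.83 and 5.06, against 5.92 to 6.72 in nerve). The differences of means were -2.37, -1.61, -1.61 and -1.49. That of Slc2a3 shrank to -0.35 in another setting on the matching scans.

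Ldha and P4ha1 were the genes called higher in Schwann cells than in nerve. Ldha was at 17.47 to 17.65 in the cultures, against 15.49 to 16.97 in nerve and 14.80 to 15.56 in cord. Its difference of means over nerve was 1.23, and 0.79, under 2-fold, without the contralateral nerve. Ldhb was at 12.57 to 12.59 in the cultures, against 12.81 to 14.65 in nerve and 14.77 to 15.95 in cord. The shift of Ldha against Ldhb was 2.18 over nerve and 5.19 over cord, while within nerve both cut segments lay nearer to the cultures than the contralateral nerve did. P4ha1 was at 10.95 to 11.38 in the cultures, above 9.93 to 10.34 in nerve (difference 1.04, and 0.91 to 0.98 without the 24 h culture, the distal or the proximal nerve).

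The genes lower in the cultures than in nerve were 2 transporters and 4 of the hypoxia response. Adm was at 7.08 to 7.38 in Schwann cells, against 13.68 to 14.25 in nerve, the widest gap of the set (difference -6.73). Ndrg1 was at 10.22 to 10.46, against 13.22 to 15.29 in nerve (-3.70), and Slc2a1 at 10.98 to 11.05, against 13.47 to 14.44 in nerve (-2.95). Slc16a1 was at 8.19 to 8.50, against 10.14 to 11.25 in nerve (-2.33), Egln3 at 6.51 to 6.70, against 7.71 to 9.03 in nerve (-1.91), and Bnip3 at 11.59 to 11.83, against 12.29 to 13.87 in nerve (-1.39, and -0.99 without the contralateral nerve). Slc16a3 and Slc2a3 were not called, since the ranges of cultures and nerve overlapped. All 6 were lower than in cord as well. Of the endothelial markers 2 or 3 of 5 were well above background in the cultures and 5 of 5 in each nerve and cord sample, and their summed level was 8.75 to 9.17, against 13.60 to 14.04 in nerve.

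Some genes of the set had a narrow range. Pfkl ranged from 9.07 to 9.66, Pfkfb3 from 6.43 to 7.07 and Car9 from 7.09 to 8.16 over the 8 arrays. Aldoa lay between 13.20 and 14.50 and Gapdh between 14.70 and 16.05.

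**Figure D4:**
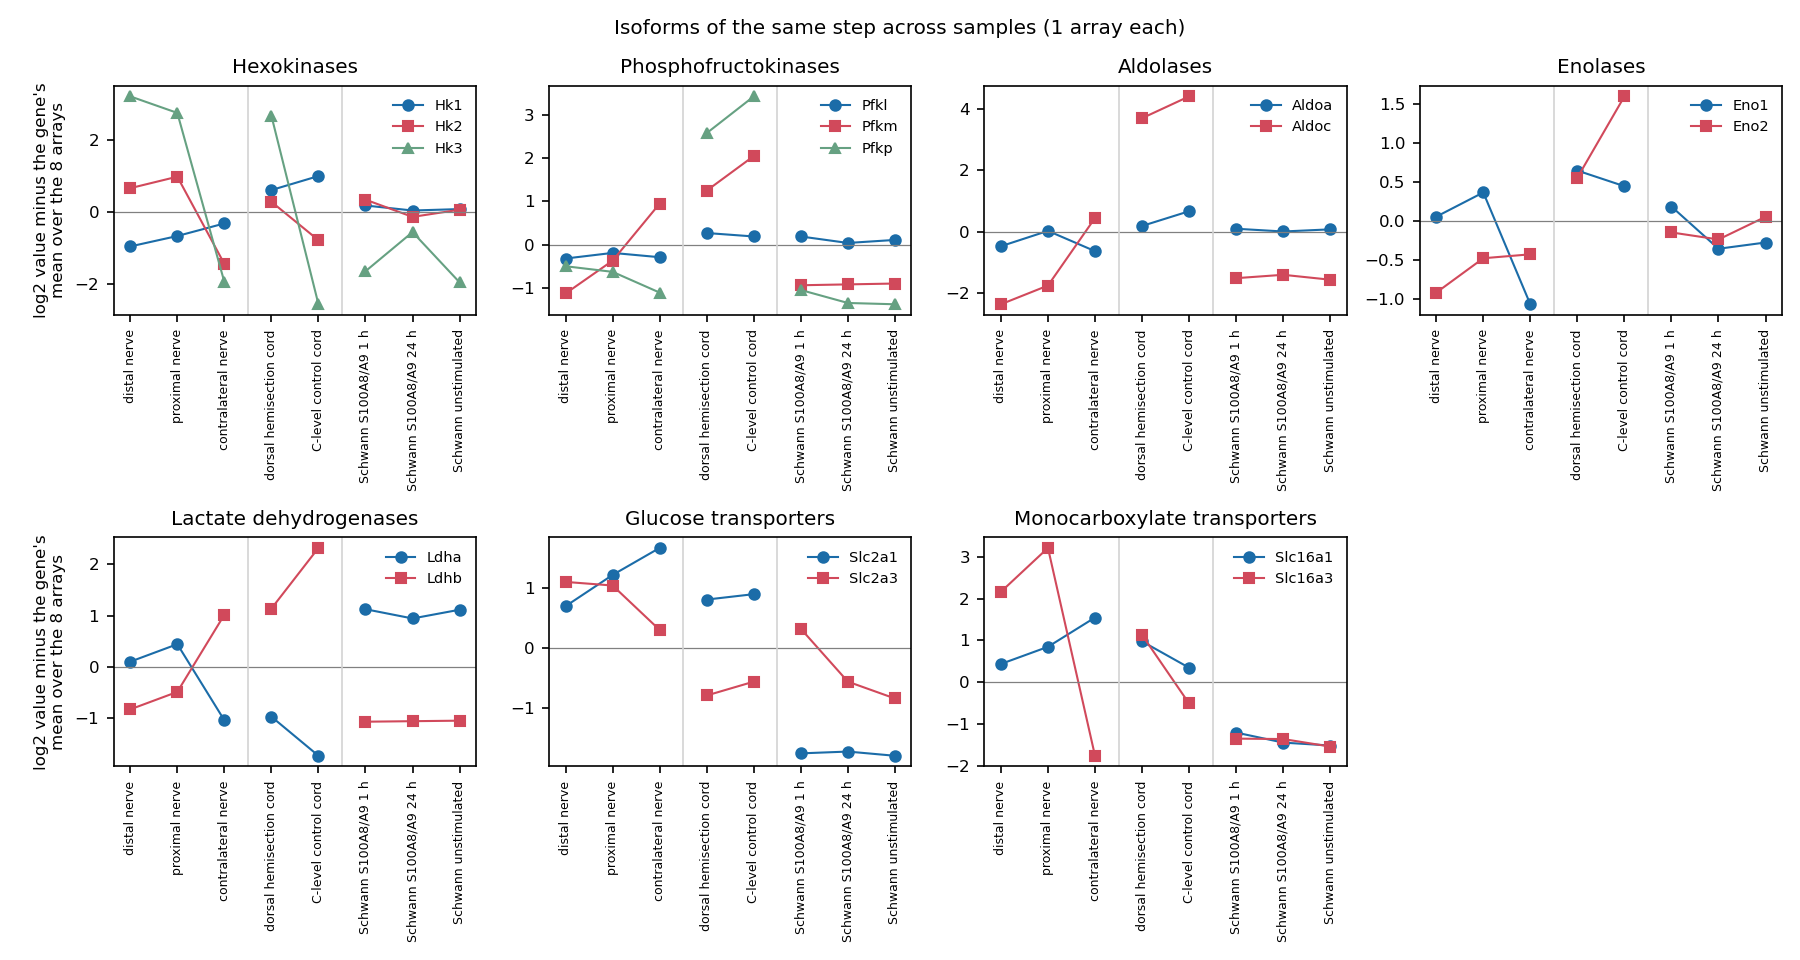
Log2 value of each isoform minus its own mean over the 8 arrays, by sample, in 7 families; lines join samples of 1 tissue and each point is 1 array. Ldha and Ldhb cross between the cut segments and the contralateral nerve, as do Slc16a3 and Slc16a1, and in the 3 cultures Ldha is above its mean and Ldhb below it.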

How the data were processed

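Total RNA was hybridised to 1-colour arrays, 1 per group. The scanner files hold spot intensity that the authors deposited. Per the file headers the software was Feature Extraction 10.7.3.1; version 10.5 is named in the submitters' processing notes. Log2 values of 24894 probes and 44 controls make up the authors' deposited value table, whose column medians are equal. Its normalization, offset and probe selection are not stated in these sources. Well-above-background and saturation flags (other values) are the scanner software's, per the file headers. The 8 arrays shared 1 slide and 1 scan time.

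Columns were read by their headings. Each ranks with 1 scan (Spearman rho at least 0.99967, next best at most 0.993), recorded under another sample for 7 of 8; flags and errors came from the scan matched by rank. Accessions were matched without versions to RefSeq symbols of GRCr8 (15213 probes, 12765 symbols; headers name rn4). The probe with the highest mean stood for a gene. A probe not well above background (under 50.0% of its spots) on 1 array of a pair was set to at least the lowest signal well above background there, giving a bound. The share of the 30367 probes that was well above background ran from 66.7% to 77.6%; the number of arrays limits the precision. Technical errors pool replicate-spot variances in 20 intensity bins. Calling was run on simulated data with shifts well beyond the limit and little noise, so this checked the code and not the calls. Alternatives were the matched scans and the scans as recorded (each at the 75th percentile), normexp with offset 50 on median signals (there is no mean signal column) with limma 3.58.1 in R 4.3.3, the mean of probes, and stricter or no background filters; the rest used Python 3.11.15 and pandas 2.3.3. All 33 members were accounted for; isoform groups and members at least 2-fold apart within a tissue were given in full, and from related lists the 2 highest and 2 lowest genes, some of which are not reported here. Members and lists were chosen with earlier results of these data known.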

Additional observations from a re-analysis of the deposited data

Results flagged for a closer look

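Egln3 had opposite signs in the 2 cut segments against the same contralateral nerve, with log2 ratios of -1.15 in distal nerve and 0.18 in proximal nerve. Ddit4 had opposite signs in Schwann cells against the same unstimulated culture, with -1.07 at 1 h and 0.10 at 24 h. Each pair differs by over 1 log2 unit, and with 1 array in each group neither difference was tested. The other Ddit4 probe gave -0.92 and 0.22. The unstimulated culture was collected at 24 h, so at 1 h stimulation and collection time cannot be told apart.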

How the results depend on the processing

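Of 81 log2 ratios and tissue differences at least 2-fold, none turned its sign with the matched scans, normexp, the mean of probes or other background filters, and 50 of 81 did with the scans as recorded, which compare other arrays than the headings name. Sizes were less steady than signs. The matched scans at the 75th percentile moved 50 of 81 and normexp moved 41 of 81. A move was at least the technical error, or a fixed limit for tissue differences. The comparisons listed next carry the recorded names, not the tissues matched by rank. By rank, the scan recorded as proximal nerve is the 1 h culture, and that recorded as contralateral nerve is dorsal hemisection cord. Those recorded as dorsal hemisection and C-level control cord are the unstimulated and the 24 h culture. In distal over contralateral nerve the sign turned for Eno1 (-0.34), Pdk1 (-0.11) and Ndrg1 (0.86). In proximal over contralateral nerve it did for Hk2 (-0.51), Hk3 (-5.15), Eno1 (-0.11), Slc16a3 (-2.65) and Pdk1 (-1.05). In distal over proximal nerve it did for Slc16a3 (3.68) and Egln3 (1.66). In dorsal hemisection over C-level control cord it did for Hk3 (-1.51), Eno2 (0.33) and Slc16a3 (-0.20). In Schwann cells at 1 h over unstimulated it did for Slc2a3 (-0.65) and Ddit4 (1.84). At 24 h over unstimulated it did for Hk3 (-4.70). At 24 h over 1 h it did for Hk3 (-0.21) and Ddit4 (-1.69). In Schwann cells over nerve it did for Ldha (-0.92), Slc2a1 (1.25), Slc16a1 (0.91), Egln3 (1.61), Bnip3 (1.25), Ndrg1 (1.99), P4ha1 (-0.23) and Adm (2.17). In cord over nerve it did for Pfkm (-0.58), Pfkp (-1.65), Aldoc (-1.39), Pgam1 (-0.36), Ldhb (-0.72), P4ha1 (1.38) and Hif1a (0.01). In Schwann cells over cord it did for Gpi (0.74), Pfkm (1.66), Pfkp (1.72), Aldoc (2.40), Tpi1 (0.76), Eno2 (0.40), Ldha (-1.83), Ldhb (1.68), Slc2a1 (2.87), Slc16a1 (2.56), Slc16a3 (2.04), Egln3 (2.82), Bnip3 (1.96), Ndrg1 (3.57), P4ha1 (-1.61), Adm (5.98) and Hif1a (-0.03).

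Counts of genes at least 2-fold apart moved by over 1.5 times as follows. With the scans as recorded 2 were higher and 13 lower in proximal over contralateral nerve, 8 were higher in distal over proximal nerve, and 0 were higher and 1 lower in dorsal hemisection over C-level control cord. In Schwann cells the same setting gave 5 higher and 9 lower at 1 h, 7 higher and 8 lower at 24 h, and 10 higher and 5 lower at 24 h over 1 h. It gave 1 higher and 0 lower in Schwann cells over nerve, 1 higher in cord over nerve, and 11 higher and 2 lower in Schwann cells over cord. The matched scans at the 75th percentile gave 1 lower in cord (4 in the value table). Normexp gave 0 higher at 1 h, 0 at 24 h and 1 at 24 h over 1 h; the mean of probes gave 0 lower at 1 h; and requiring all arrays well above background gave 0 higher at 24 h. The cause was not tested, except that the last setting leaves Hk3 out. Leaving out each sample in turn gave 1 to 2 higher in Schwann cells over nerve, 6 to 9 lower in Schwann cells over nerve, 6 to 9 higher in cord over nerve, 4 to 8 lower in cord over nerve, 3 to 4 higher in Schwann cells over cord and 14 to 15 lower in Schwann cells over cord. No paired analysis was possible because each group had 1 array.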
